A study of Sus scrofa with 2 samples.

Results

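The enzymes described here make steroid hormones or inactivate them. They are 10 genes chosen by symbol for their known reactions: STAR, CYP11A1, CYP17A1, CYP19A1, HSD17B2, HSD17B4, HSD11B1, HSD11B2, SULT1E1 and SRD5A1. Earlier results of these data were known when these genes were chosen. The deposited table was searched for transcripts whose RefSeq accession belongs to 1 of these symbols, and 9 of the 10 genes had a row, out of 11071 genes that could be matched to a symbol. No row matched SULT1E1, the estrogen sulfotransferase, so it is not analysed here. Each of the 9 genes had 1 matched transcript in the table. Only 16072 of 38222 mRNA accessions could be matched, so further transcripts of these genes may be among the unmatched ones. The tissue came from Yorkshire sows at day 18 of gestation, named YK18, and each of the 2 pigs (replicate 1 and replicate 2) gave 1 RNA-seq library of its endometrium. The sows came from 1 commercial herd and were inseminated artificially, and the uterine horns were flushed with saline before the endometrium was taken. No gene was altered and no treatment was given. There was 1 condition, so values are given per pig, and nothing was compared between days, breeds or treatments. A two-sided exact sign test over 2 pigs cannot give a p under 0.5, so no test was made.

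Steroid hormones are made from cholesterol. STAR carries cholesterol into the mitochondrion, CYP11A1 cuts its side chain to give pregnenolone, CYP17A1 turns pregnenolone and progesterone toward androgens, and CYP19A1 (aromatase) turns androgens into estrogens. A target tissue can also remove or restore an active hormone locally. HSD17B2 and HSD17B4 oxidise estradiol to the weaker estrone, SULT1E1 adds sulfate to estrogens, SRD5A1 reduces progesterone and testosterone at the 5-alpha position, HSD11B2 oxidises cortisol to inactive cortisone, and HSD11B1 mainly runs the reverse reaction. In the pig, estrogen from the conceptus is the signal by which pregnancy is recognised, and progesterone from the ovary keeps the endometrium in its secretory state.

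Expression is given as RPKM, as the authors deposited it, which is the number of reads divided by the transcript length in kilobases and by the library total in units of 1000000 reads. RPKM values move in steps of 1 read, and reads and library totals were derived from these steps. The libraries held 7466979 and 7023108 counted reads. For each transcript the reads are the smallest whole numbers that give both RPKM values, so single transcripts may have had a whole multiple of them. Added over all transcripts, they made up 90.3% of the total in replicate 1 and 90.4% in replicate 2. Intervals are 95% exact binomial intervals on these reads, except those of the estrogen folds, which are exact Poisson intervals on the reads of CYP19A1. They describe counting error alone. Copies made by PCR are not separate molecules, and the intervals do not allow for them. The endometrium label was checked against 4 listed stroma genes and 6 listed epithelium genes. All 4 stroma genes and 5 of the 6 epithelium genes were above 1 RPKM in both pigs. Of all matched genes 54.6% were at or above this level, so the count alone is a weak check. EPCAM, an epithelial adhesion molecule, was at 5106 and 5128 RPKM. KRT8 was listed at 0 in both although KRT18, its partner in simple epithelium, was at 1626 and 1064 RPKM, so for a gene at 0 no absence is claimed.

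The inactivating and interconverting enzymes were far above the synthesis enzymes in both pigs. The 5 listed genes of the first kind summed to 3476 RPKM in replicate 1 and 4428 RPKM in replicate 2, and the 4 genes of synthesis to 46.8 and 17.2 RPKM. Synthesis thus held 1.33% and 0.386% of the summed level of the 9 enzymes. STAR in both pigs and CYP19A1 in replicate 1 entered these sums as 0, though no absence is claimed for them. HSD17B4 alone held 70.3% in replicate 1 and 52.0% in replicate 2. In bulk tissue, fewer cells of a type and less RNA per cell cannot be told apart. Of the 9 genes, 7 were at or above 1 RPKM in both pigs, and of all matched genes 54.6% were. The median of the 9 genes was 46.4 RPKM in the first pig and 46.8 RPKM in the second, against 2.82 and 3.27 RPKM over all matched genes.

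**Figure D1:**
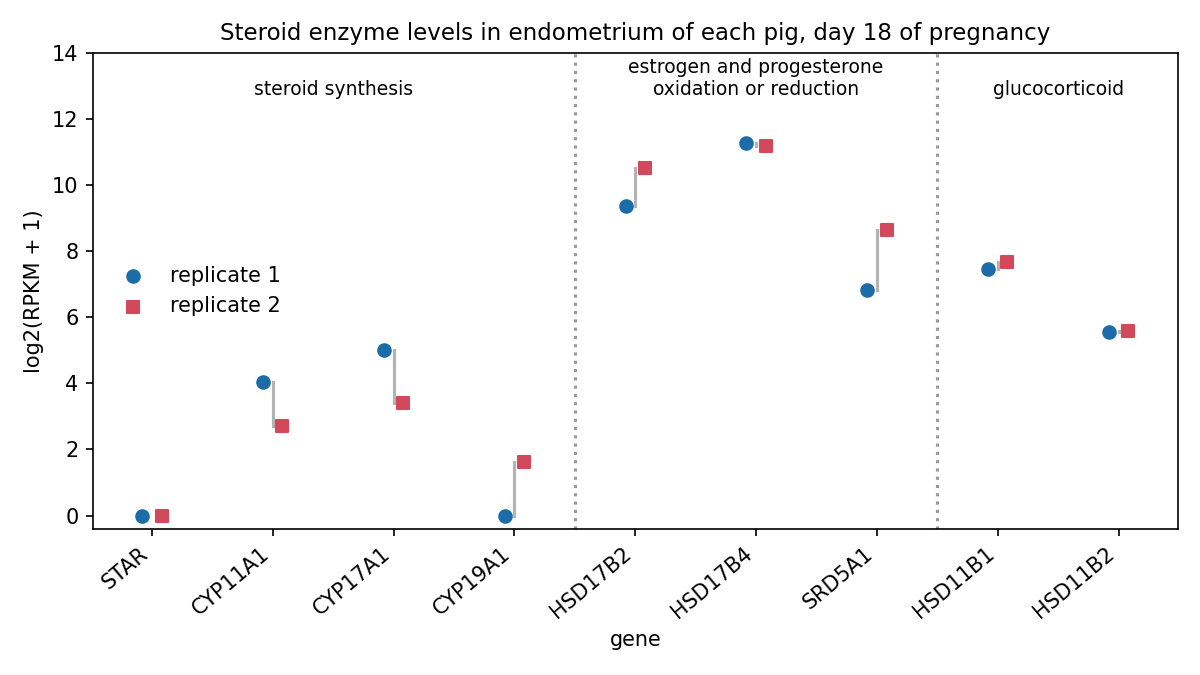
Level of each of the 9 listed enzymes, as log2(RPKM + 1), in YK18 replicate 1 (circles) and replicate 2 (squares), with a line joining the 2 pigs. The 4 synthesis genes on the left lie at or below 31.2 RPKM, and the other 5 lie at or above 46.4 RPKM.

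In the order of the mean level, HSD17B4 was first, followed by HSD17B2, SRD5A1, HSD11B1, HSD11B2, CYP17A1, CYP11A1 and CYP19A1, with STAR listed at 0. The ranges of the pigs overlapped between SRD5A1 and HSD11B1, between CYP17A1 and CYP11A1, and between CYP19A1 and STAR, so that over the pigs these neighbours did not differ beyond their spread. Within each library CYP17A1 was nevertheless above CYP11A1. The other neighbours did not overlap in RPKM. In replicate 1 HSD11B1 stood above SRD5A1, 1.56-fold, and in replicate 2 it was at 0.507 of it. Levels depend on the transcript length by which the authors divided. The lengths that fitted the values were short, from 56 nt for HSD17B2 and 103 nt for CYP11A1 to 304 nt for SRD5A1. In reads per 1000000 reads, with no division by length, the mean of SRD5A1 stood above that of HSD17B2, and the other means kept their places. The ranges of SRD5A1 (34.2 and 121.9), HSD17B2 (37.2 and 82.2) and HSD11B1 (39.0 and 45.1) then overlapped. In replicate 1 HSD17B2 was at 0.955 of HSD11B1 in reads. HSD11B2, the lowest of the inactivating and interconverting enzymes, then had a mean of 12.9 reads per 1000000. CYP17A1, the highest of synthesis, had a mean of 3.94. On these smallest fitting reads the sides stayed apart in both pigs. A whole multiple of the reads of single genes could change this order in reads.

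HSD17B4 (NM_214306.1) is a peroxisomal enzyme that joins the oxidation of estradiol to a part in fatty acid breakdown. It was at 2477 RPKM in replicate 1 and at 2309 RPKM in replicate 2, a mean of 2393 ± 118.5 RPKM (SD, n = 2). Replicate 2 was at 0.932 of replicate 1, with a counting interval of 0.878 to 0.991, a small difference. The gene stood at percentile 97.7 and 97.5 of the matched genes above 0 in both libraries. Behind these levels were 2275 and 1995 reads.

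HSD17B2 (NM_001167649.1) is a microsomal enzyme that oxidises estradiol to estrone and testosterone to androstenedione. It was at 665 RPKM in replicate 1 and at 1467 RPKM in replicate 2, a mean of 1066 ± 567 RPKM (SD, n = 2). Replicate 2 was 2.21-fold higher, with a counting interval of 1.91 to 2.56 from 278 and 577 reads. The gene was among the upper genes of each pig, at percentiles 89.4 and 95.3. HSD17B4 was 3.73-fold above HSD17B2 in replicate 1 and 1.57-fold in replicate 2. In reads, with no division by length, it was 8.18-fold and 3.46-fold above. Either way, the gap between these oxidases was narrower in the second pig.

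CYP19A1 (NM_214429.1), the enzyme that makes estrogens, was listed at 0 in replicate 1 and was at 2.05 RPKM in replicate 2. The latter value rests on 3 reads. A count of 0 allows up to 3 reads as a one-sided limit, or 0.402 per 1000000 reads in replicate 1, and the two-sided exact interval for the 3 reads of replicate 2 was 0.0881 to 1.25 per 1000000 reads. These overlap, and with these smallest fitting reads a difference between the pigs was not detectable. The pig genome holds further aromatase genes, of which CYP19A2 was at 1.46 and 3.87 RPKM from 2 and 5 reads. Reads shared between such near-identical genes may have been split or left out by the counting, and the aromatase values are uncertain for this reason.

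For estrogen, the oxidases summed to 3142 RPKM against CYP19A1 listed at 0 in replicate 1, and to 3777 RPKM against 2.05 RPKM in replicate 2. In replicate 2 this is 1839-fold, with a counting interval of 629 to 8917 from the 3 reads of CYP19A1. HSD17B2 alone was 714-fold above CYP19A1 there (244.4 to 3464). These folds depend on the authors' lengths, and in reads they were 857-fold for both oxidases and 192-fold for HSD17B2 alone. No fold is given for replicate 1. With 1 RPKM added to each side, the log2 ratio of inactivation to synthesis was 11.62 in replicate 1 and 10.27 in replicate 2, and its size depends on the added value because CYP19A1 was at or near 0. Among the enzymes of the opposite reaction, from estrone to estradiol, is HSD17B1. It was at 29.9 RPKM in replicate 1 and at 19.5 RPKM in replicate 2. HSD17B2 was 22.2-fold above HSD17B1 in replicate 1 and 75.4-fold in replicate 2. In reads, with no division by length, it was 7.72-fold and 26.2-fold above, so the oxidising member of this pair was the higher one in both pigs. HSD17B7, listed at 0 in both pigs, and HSD17B12, with no matched row, did not enter these folds.

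STAR (NM_213755.2), which delivers cholesterol to the first enzyme of the pathway, was listed at 0 in both pigs. CYP11A1 (NM_214427.1), the enzyme of the first step, was at 15.6 RPKM in replicate 1 and at 5.53 RPKM in replicate 2, a mean of 10.6 ± 7.12 RPKM (SD, n = 2). These levels rest on 12 and 4 reads. Replicate 2 was at 0.354 of replicate 1, with a counting interval of 0.0833 to 1.17 that includes 1. With these smallest fitting reads, the difference was not detectable. CYP11A1 stood at percentiles 41.7 and 27.8 of the matched genes above 0 in both libraries.

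CYP17A1 (NM_214428.1), which leads from progestins toward androgens, was at 31.2 RPKM in replicate 1 and at 9.59 RPKM in replicate 2, a mean of 20.4 ± 15.3 RPKM (SD, n = 2). Replicate 1 was 3.26-fold higher, with a counting interval of 1.73 to 6.58 from 45 and 13 reads. It was 2.00-fold above CYP11A1 in replicate 1 and 1.73-fold in replicate 2. In both pigs CYP17A1 was the higher of the pair. HSD3B1, which turns pregnenolone into progesterone and lies between them in the pathway, was at 3.21 and 3.41 RPKM from 4 reads in each pig.

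SRD5A1 (XM_003134156.4), the 5-alpha-reductase, was at 112 RPKM in replicate 1 and at 401 RPKM in replicate 2, a mean of 257 ± 204.1 RPKM (SD, n = 2). Replicate 2 was 3.57-fold higher, with a counting interval of 3.10 to 4.12 from 255 and 856 reads. The gene moved from percentile 65.2 in replicate 1 to 83.2 in replicate 2. SRD5A2, the second enzyme of this reaction, was at 1.53 and 2.99 RPKM, so SRD5A1 was the higher of these reductases in each pig. AKR1C1 inactivates progesterone at the carbon 20 position. Its listed transcript NM_001044569.1 was at 21.2 and 120.8 RPKM, while the 5 transcripts of a second gene of that name were listed at 0, and reads of such near-identical genes may have been split. Other genes with several matched transcripts were also at 0, such as STARD3, FDXR and HSD17B7. SQLE, at 138 and 106 RPKM, and PECAM1, at 192 and 159 RPKM, had 2 each and were not. The effect of the number of transcripts on a level was not tested. SRD5A1 was 5.29-fold and 3.32-fold above the listed AKR1C1 transcript.

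For progesterone, SRD5A1 was 7.20-fold above the sum of STAR, listed at 0, and CYP11A1 in replicate 1 and 72.5-fold in replicate 2. With 1 RPKM added to each side, the log2 ratio was 2.77 in replicate 1 and 5.94 in replicate 2, a mean of 4.36 ± 2.24 (SD, n = 2). Reduction was above synthesis in both pigs, and the pigs differed by 3.17 on the log2 scale. The 12 and 4 reads of CYP11A1 limit this ratio. In reads, with no division by length, SRD5A1 was 21.2-fold above CYP11A1 in replicate 1 and 214.0-fold in replicate 2.

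HSD11B1 (NM_214248.1), which restores cortisol from cortisone, was at 176 RPKM in replicate 1 and at 203 RPKM in replicate 2, a mean of 189 ± 19.6 RPKM (SD, n = 2). HSD11B2 (NM_213913.1), which inactivates cortisol, was at 46.4 RPKM in replicate 1 and at 46.8 RPKM in replicate 2, a mean of 46.6 ± 0.257 RPKM (SD, n = 2). Neither gene differed between the pigs beyond counting error on the smallest fitting reads. The ratio of replicate 2 to replicate 1 had an interval of 0.985 to 1.36 for HSD11B1, from 291 and 317 reads, and of 0.748 to 1.36 for HSD11B2, from 96 and 91 reads. HSD11B1 was 3.78-fold above HSD11B2 in replicate 1 and 4.35-fold in replicate 2. On the log2 scale, with 1 RPKM added to each side, the ratio was 2.00 ± 0.14 (SD, n = 2), so that of the 3 hormones the glucocorticoid pair varied least between the pigs. Here the reactivating enzyme, not the inactivating one, was the higher transcript. HSD11B1 needs NADPH, which H6PD supplies to it inside the endoplasmic reticulum, and H6PD had no matched row.

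**Figure D2:**
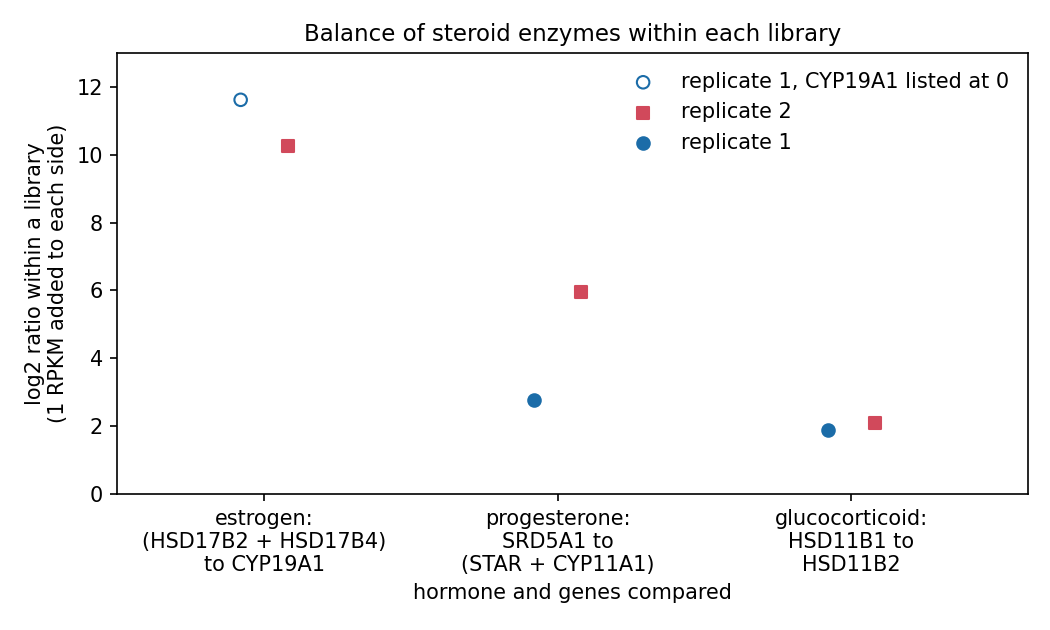
Log2 ratio of 2 sides of each hormone's metabolism within a library, with 1 RPKM added to each side, for replicate 1 (circles) and replicate 2 (squares). The open circle is the estrogen ratio of 11.62 in replicate 1, where CYP19A1 was listed at 0, and the glucocorticoid ratios of 1.90 and 2.10 lie closest together.

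Of the 8 enzymes with a mean of at least 1 RPKM, 3 were at least 2-fold higher in replicate 2 on the log2(RPKM + 1) scale, where 7.49% of 6476 matched genes were. These were SRD5A1 at a log2 ratio of 1.83, CYP19A1 at 1.61 and HSD17B2 at 1.14. A further 2 were at least 2-fold higher in replicate 1, where 3.17% of matched genes were. These were CYP17A1 at a log2 ratio of -1.61 and CYP11A1 at -1.35. HSD11B1, HSD11B2 and HSD17B4 had log2 ratios of 0.21, 0.01 and -0.10. The median over the 8 enzymes was 0.11, with members in both directions, beside 0.07 over all matched genes of that level.

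**Figure D3:**
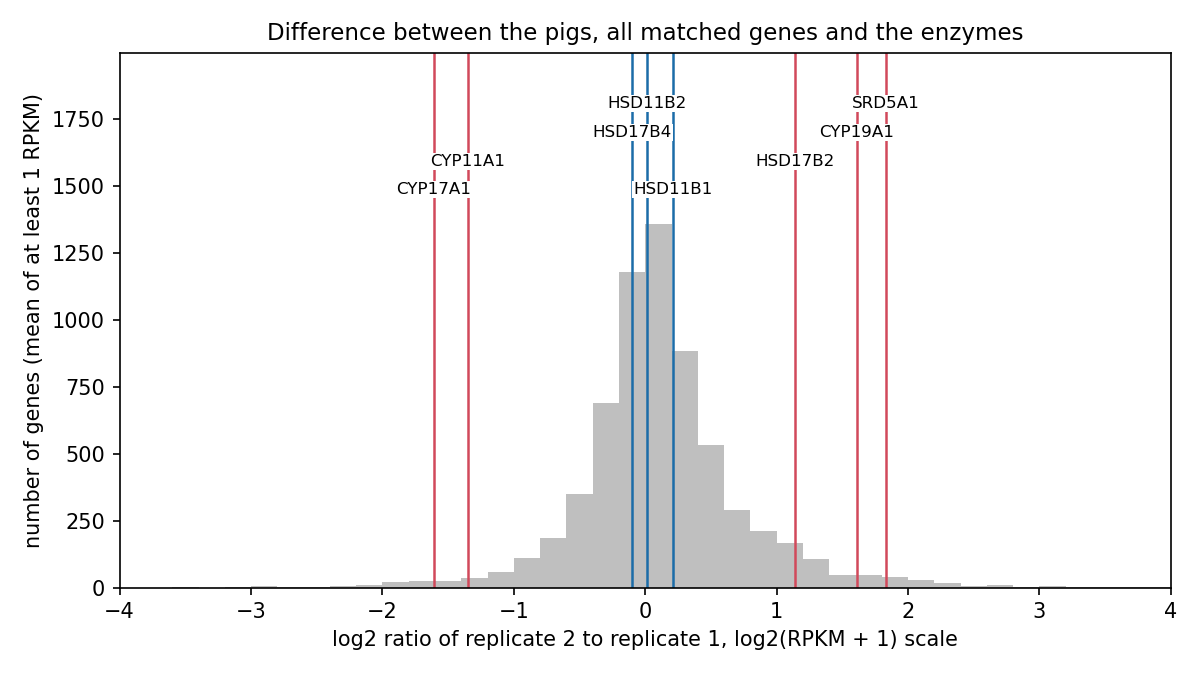
Histogram of the log2 ratio of replicate 2 to replicate 1 over 6476 matched genes with a mean of at least 1 RPKM, with vertical lines at the 8 enzymes of that level. Red lines mark the 5 enzymes at least 2-fold apart and blue lines the 3 that were not, and 11 genes with a ratio beyond 4 in either direction are outside the axis.

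Low genes vary more, and the same count was therefore made among genes with a mean of at least 10 RPKM. Of the 7 enzymes left, HSD17B2 and SRD5A1 were at least 2-fold higher in replicate 2, where 4.15% of 4507 genes were. CYP11A1 and CYP17A1 were at least 2-fold higher in replicate 1, where 1.42% were. Of these 4 enzymes, the counting interval lay wholly on one side of 1 for HSD17B2, SRD5A1 and CYP17A1 and not for CYP11A1. The intervals compare these 2 libraries and say nothing of a condition. In reads per 1000000 reads, 3 enzymes were at least 2-fold apart, namely HSD17B2, SRD5A1 and CYP17A1. The enzymes at least 2-fold higher in replicate 2 were thus an estradiol oxidase and the 5-alpha-reductase, besides CYP19A1 with its 3 reads, and those higher in replicate 1 were both cytochromes of early synthesis. This split was seen after the values and was not tested.

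**Figure D4:**
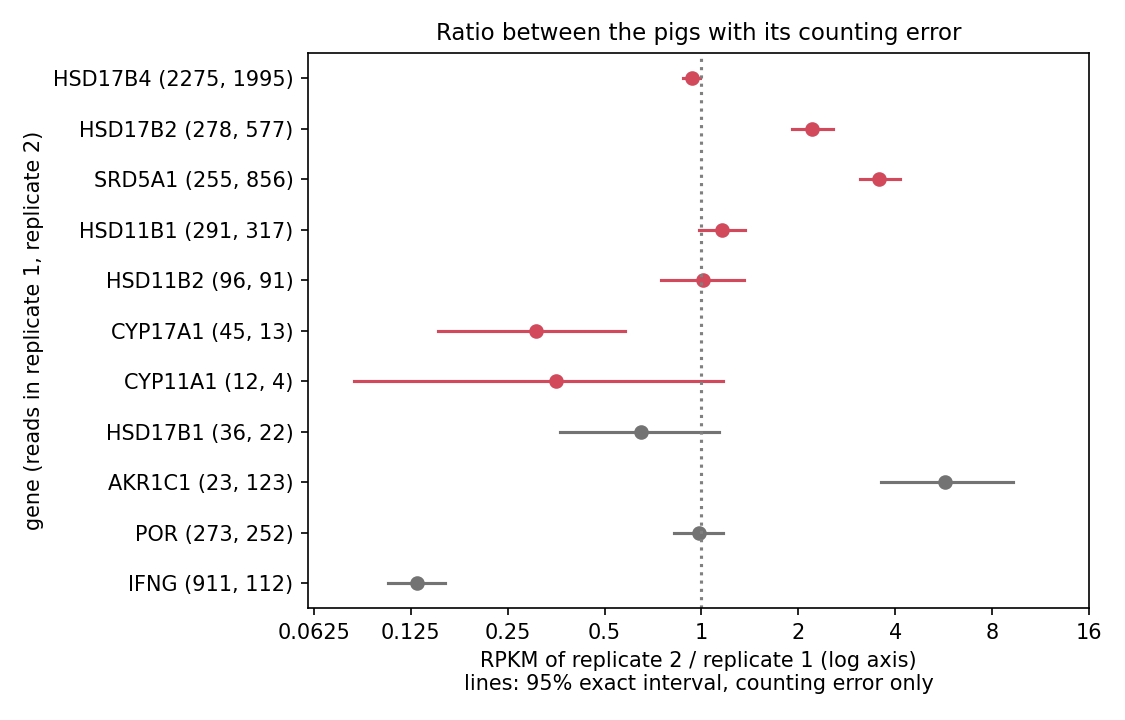
Ratio of RPKM in replicate 2 to replicate 1 on a log axis for 7 enzymes (red) and 4 other genes (grey), with 95% exact intervals for counting error and the reads of each library in parentheses. The intervals of HSD17B2 and SRD5A1 lie above 1, that of CYP17A1 lies below it, and that of CYP11A1 spans it.

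Of 8 listed genes that mark the trophectoderm, the outer layer of the conceptus, 2 had a mean of at least 1 RPKM. Of these, 1, IFNG, was at least 2-fold higher in replicate 1, where 3.17% of matched genes with such a mean were. IFNG, which the pig conceptus secretes around attachment and which T cells and natural killer cells also make, was at 682 RPKM in replicate 1 and at 89.1 RPKM in replicate 2. CDX2 had 7 reads in replicate 1 and 1 in replicate 2, DLX3 had 8 and 1, and PAG6, which the annotation also calls PAG2 and which belongs to a family of near-identical genes, had 3 and 0. TFAP2C was at 17.5 and 14.1 RPKM, IFN-DELTA-1 had 1 read in each pig, and ELF5 and GATA3 were listed at 0 in both. The 8 markers summed to 703 RPKM in replicate 1 and 104 RPKM in replicate 2, almost all of it IFNG, and the other 7 summed to 21.7 and 14.6 RPKM. CYP17A1 was higher in the same pig as IFNG. The part of these markers in the difference of CYP17A1 was not tested. Of 5 listed leukocyte markers, 4 had a mean of at least 1 RPKM. Of these 4, 0 were at least 2-fold apart, where 7.49% of matched genes were higher in replicate 2 and 3.17% in replicate 1. The 5 markers summed to 634 RPKM in the first pig and 1017 RPKM in the second, mostly from PTPRC. PTPRC, the common leukocyte antigen, was at 526 and 846 RPKM, and CD3E, a T cell receptor subunit, at 67.5 and 127.8 RPKM. NKG7, a marker of natural killer cells, was at 25.3 and 26.4 RPKM, CD14, a monocyte marker, was at 14.8 and 17.6 RPKM, and CD79A, a B cell marker, was listed at 0 in both. Their part in the higher SRD5A1 and HSD17B2 of replicate 2 was not tested.

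The genes that supply cholesterol were abundant in both pigs. Of 12 genes, 11 were listed, 9 were at or above 1 RPKM in both pigs, where 54.6% of all matched genes were, and their median was 290.1 RPKM in the first pig and 382 RPKM in the second. SCARB1, the receptor for high density lipoprotein, was at 576 and 507 RPKM, and SOAT1, which esterifies cholesterol for storage, at 491 and 468 RPKM. NPC1 and NPC2, which move cholesterol out of the lysosome, were at 268 and 285 RPKM and at 290.1 and 382 RPKM. SQLE, the squalene epoxidase, was at 138 and 106 RPKM. LIPE, a lipase that frees cholesterol from its esters, was the only one of the 9 at least 2-fold apart, higher in replicate 2 as 7.49% of all matched genes were, at 1.92 and 4.91 RPKM from 5 and 12 reads. STARD3, a relative of STAR, was listed at 0 in both pigs, and TSPO had 1 read in each.

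Of the other genes of steroid synthesis and activation, 9 of 16 were listed, 5 were at or above 1 RPKM in both pigs, a share near the 54.6% of all matched genes, and 0 of these 5 were at least 2-fold apart, where 7.49% of all genes were higher in replicate 2 and 3.17% in replicate 1. POR, which passes electrons to microsomal cytochromes such as CYP17A1 and CYP19A1, was at 295 and 289 RPKM. HSD17B3, which makes testosterone, was at 24.3 and 12.9 RPKM, from 4 and 2 reads only. FDXR, which serves CYP11A1 in the mitochondrion, was listed at 0 in both pigs, as were CYP21A2 and HSD17B7. FDX1 and STS, the steroid sulfatase, had no matched row.

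Of the other genes of steroid inactivation, 17 of 26 were listed, 8 were at or above 1 RPKM in both pigs, beside 54.6% of all matched genes. Of the 10 with a mean of at least 1 RPKM, 2 were at least 2-fold higher in replicate 2 and 0 in replicate 1, beside 7.49% and 3.17% of all genes. The 2 were AKR1C1 and SULT2A1, a sulfotransferase of hydroxysteroids with 0 and 10 reads. SULT1A3, which the annotation also calls SULT1A1, a phenol sulfotransferase, was at 766 and 619.8 RPKM. SULT2B1, which adds sulfate to cholesterol and pregnenolone, was at 15.6 and 16.6 RPKM, and UGT1A6, a glucuronosyltransferase, at 11.3 and 14.5 RPKM. SLC35B2, the carrier that brings the sulfate donor into the Golgi, was at 150.3 and 145.7 RPKM, and the enzymes that make this donor, PAPSS1 and PAPSS2, had no matched row. The median log2 ratio of the genes with a mean of at least 1 RPKM was 0.40 for inactivation, -0.04 for synthesis and -0.07 for cholesterol supply.

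**Figure D5:**
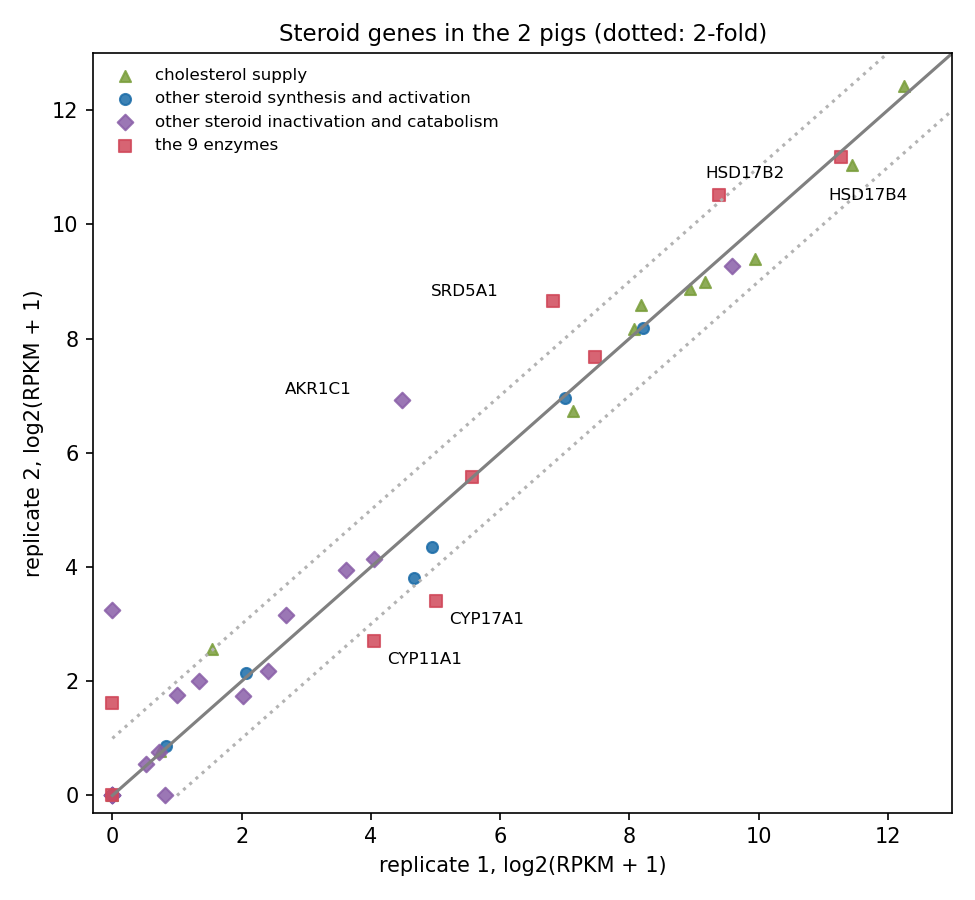
Level in replicate 2 against level in replicate 1, as log2(RPKM + 1), for the 9 enzymes (squares) and the listed genes of cholesterol supply (triangles), other steroid synthesis (circles) and other steroid inactivation (diamonds). The solid line marks equal levels and the dotted lines a 2-fold difference, and SRD5A1, HSD17B2 and AKR1C1 lie above the upper dotted line while CYP17A1 and CYP11A1 lie below the lower one.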

How the data were processed

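Endometrium RNA of 2 pigs (YK18) was sequenced, with 1 library per pig. Transcript levels were calculated by the authors with HTSeq (version 0.6.1 in the submitters' processing notes) and deposited as RPKM values. The aligner, genome build and annotation are not given in the sources used here, and no coordinates are printed. Accessions were matched to symbols, version ignored, through the RefSeq annotation of Sscrofa11.1, which found 16072 of 38222 mRNA accessions (42.0%), and rows of a gene were summed. The RPKM sums were 4279448 for the first pig and 4272865 for the second. Reads were recovered from the RPKM steps with transcript lengths up to 20000 nt, which gave whole reads, within at most 0.02 of a read, for 100% of 25584 transcripts above 0. The recovery was tested on simulated data. Ratios between pigs are on the log2(RPKM + 1) scale, over genes whose mean reached 1 RPKM except where another limit is given, and were given no test because there was 1 library per pig. Intervals are exact binomial, and exact Poisson for the estrogen folds. The enzymes and gene lists were chosen with earlier results of these data known. Named genes were all 10 enzymes, other listed genes with a mean of at least 10 RPKM or at least 2-fold apart, and the markers, and a few more whose values were already in view. Some listed genes that met this rule are not reported here by name. The list of paralogs was added later. Alternatives were other pseudocounts, thresholds, scalings and gene sets. Python 3.11.15, numpy 2.4.6, pandas 2.3.3, scipy 1.17.1 and matplotlib 3.10.9 were used.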

Additional observations from a re-analysis of the deposited data

How the results depend on the processing

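No paired analysis was possible because there was only 1 group, YK18. The alternative with coding lengths from RefSeq proteins was not run, as no protein lengths were at hand. The log2 ratio of estrogen inactivation to synthesis, 10.95 in the mean, was 12.86 with a pseudocount of 0.1, 14.55 with 0.01, 9.37 after both libraries were rescaled to sum to 1000000 and 8.21 in reads per 1000000 reads. It was 9.14 without HSD17B4 and with HSD17B2 alone, which are the same genes here because SULT1E1 had no row. With CYP19A2 and HSD17B1 added to synthesis, chosen after seeing the data, it was 6.88. The glucocorticoid ratio, 2.00, was 1.63 in reads per 1000000 reads. The 5 enzymes at least 2-fold apart became 3 in reads per 1000000 reads, where CYP19A1 fell under the mean limit of 1 and the pseudocount of 1 is larger against the values, and 4 with the sum of 1000000, with means of 5 RPKM or more and with replicate 2 rescaled by the median ratio. The median level of 46.6 RPKM was 10.9 with the sum of 1000000 and 12.9 in reads per 1000000 reads, which lower most levels by construction. The gap between the pigs in the estrogen ratio, 1.35, was 4.16 with a pseudocount of 0.1 and 7.42 with 0.01, against 3.17, 3.31 and 3.33 for progesterone, so which gap is wider depends on the pseudocount. The progesterone ratio, 4.36, ran from 3.96 with the sum of 1000000 to 5.02 in reads per 1000000 reads when both pigs were kept. These moves were less than its SD of 2.24, which is wide. With 2 pigs, leaving 1 out cannot move a mean by as much as its SD. With 1 replicate left out, the ratios ran from 10.27 to 11.62 for estrogen, from 2.77 to 5.94 for progesterone and from 1.90 to 2.10 for glucocorticoid, the number of enzymes at or above 1 RPKM from 7 to 8, and the median level from 46.4 to 46.8 RPKM. No ratio changed sign. Depth limits CYP19A1, CYP11A1 and CYP17A1, for which at most 3, 12 and 45 reads were recovered in a library. These are the smallest reads that fit, and 2 pigs give only a rough spread.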

Other observations

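Markers of steroid-producing cells of the ovary and adrenal gland were low in both YK18 libraries. All 8 were listed and summed to 10.7 RPKM in replicate 1 and 11.5 RPKM in replicate 2. NR5A1, the transcription factor that drives steroid synthesis in those glands, had 2 reads in replicate 1 and 1 in replicate 2. AMH had 11 reads in each pig, MC2R had 1 and 2, and INSL3 and INHA were listed at 0 in both. LHCGR, the receptor for luteinising hormone, had 0 and 1 reads, FSHR had 1 and 3, and NR0B1 had 3 and 1.

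Of 5 paralogs of the enzymes, a list added after the data had been seen, 4 were listed. HSD11B1L, a relative of HSD11B1, had 8 reads in replicate 1 (5.55 RPKM) and 4 in replicate 2 (2.95 RPKM). HSD3B7 and AKR1E2 were listed at 0 in both pigs, and CYP19A3, a further aromatase gene, had no matched row. Markers of endothelium were abundant in both pigs. KDR, a receptor for vascular endothelial growth factor, was at 3764 and 3183 RPKM, VWF at 2452 and 2732 RPKM and PECAM1 at 192 and 159 RPKM. The 4 listed stroma markers summed to 69450 and 44380 RPKM, of which the collagen gene COL3A1 gave 67100 and 42860. LUM was at 2122 and 1224 RPKM, while DCN was at 211.0 and 272 RPKM and VIM at 19.5 and 24.9 RPKM.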
